A study of Drosophila melanogaster with 2 samples.

Results

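The nuclear oxidative phosphorylation genes of Drosophila melanogaster encode the subunits of the mitochondrial respiratory chain and of its ATP synthase that are made in the cytosol and imported. They were chosen by gene symbol from the Ensembl annotation of the 6 assembled arms (ND-, COX followed by a digit, ATPsyn, UQCR, and SdhA, SdhB, SdhC and SdhD). That gave 84 of 13945 protein-coding genes, with 40 in complex I, 4 in complex II, 9 in complex III, 16 in complex IV and 15 in complex V. The data are ChIP-seq peak lists for Araucan, an Iroquois-family homeodomain protein that binds DNA, from whole embryos aged 0 to 24 h of the strain ara-GFP, whose insertion expresses an ara-eGFP fusion. Chromatin was precipitated with an antibody to the green fluorescent protein in 2 biological replicates of this strain, which form the only group. The labels' description names that antibody, while their antibody field reads ara, and the description was followed here. The embryos are a mix of tissues and ages and the factor is a tagged fusion, so a peak gives no cell type, and no embryo without the fusion was compared here.

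Complex I oxidises NADH and complex II oxidises succinate, and both pass electrons through ubiquinone to complex III. From there cytochrome c carries them to complex IV, which reduces oxygen, and the proton gradient built on the way drives ATP synthase, complex V. Most of these genes are used in nearly every cell, and many lie close to other genes that are broadly expressed. In flies a number of them have a paralog, often named with a final L and often expressed mainly in testis.

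Of the 84 genes, 16 (19.0%) had an Araucan summit within 500 bp of a transcription start site (TSS) of their own in the conservative list. The same held for 2099 of all 13945 protein-coding genes (15.1%). The conservative list is the shorter of the study's 2 series-wide peak lists thresholded on reproducibility. The share of the 84 stood near that of all genes. Without replicate 2, in the list of replicate 1 alone, 7 genes were bound (8.33%, against 9.01% of all genes), and with only the conservative peaks above the median signal 7 were bound (8.33% against 9.14%). Complex I had 7 of 40 genes, complex II 2 of 4, complex III 1 of 9, complex IV 4 of 16 and complex V 2 of 15. Without replicate 2 these counts were 4, 0, 0, 1 and 2. The signal is a value that the authors gave each peak, on a scale whose normalization is unknown here, and it is compared only within a list. The highest summit of each bound gene ranged from 49.6 to 336 in the authors' signal units, with a median of 94.1 against 114 over all bound protein-coding genes. All 16 genes lay outside the 21 paralogs with a name in L, of which 0 had a promoter summit. The other 63 genes therefore had 16 (25.4%), and 7 (11.1%) without replicate 2. With genes this few in each complex, and since neighbouring genes share summits, the shares are given as counts and no test was made between complexes or between paralogs and the rest.

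**Figure D1:**
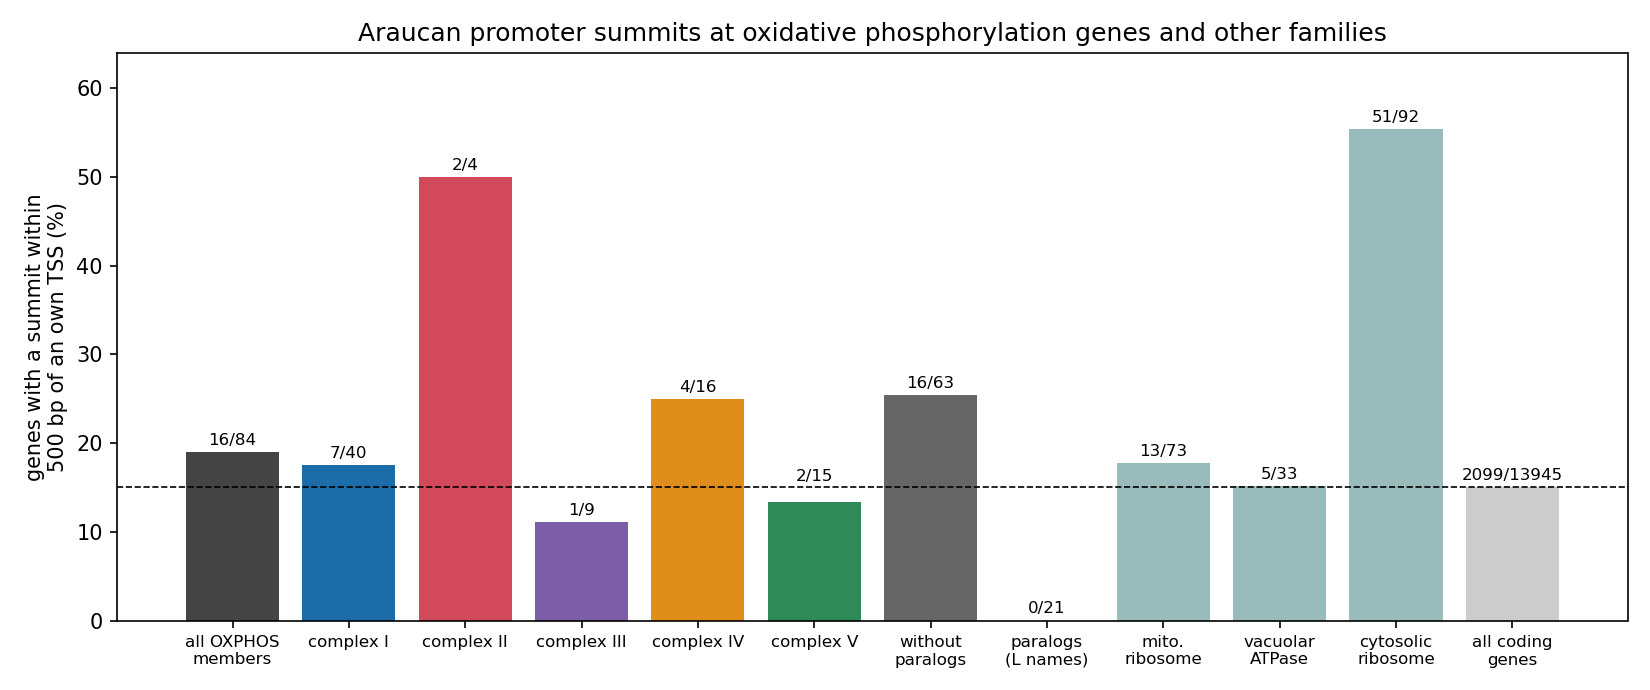
Share of genes (%) with an Araucan summit within 500 bp of an own TSS in the conservative list, for the oxidative phosphorylation (OXPHOS) genes, each complex, the genes without and with an L name, 3 other families and all protein-coding genes; numbers above the bars are genes bound of genes in the group, and the dashed line is the share of all protein-coding genes. The 84 genes (19.0%) stand near the 15.1% of all genes, and the bar of the 21 paralogs is at 0.

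The sequences under the summits are shown here for 8 of the 13 bound genes whose sequence was prepared, because they are the DNA on which the counts rest. Each is the part of a window of 50 bp to either side of the summit that lies outside every annotated exon, read from the RefSeq genome of build dm6 on the strand of the gene. Capitals mark a match to a motif that was searched, which were the DREF site TATCGATA, the M1BP site GGTCACACT, the Iroquois sequences ACANNTGT and TAACA, the E-box CAGCTG and the nuclear respiratory gene element in its forms TTACATAA, TTACGTAA, TTATGTAA and TTATATAA, all on both strands. The stretches printed for ND-ASHI, ND-51, ND-24, COX5A, COX8 and COX5B held no match, so they are in lower case throughout.
ND-ASHI (chrX:6679330-6679430, minus strand): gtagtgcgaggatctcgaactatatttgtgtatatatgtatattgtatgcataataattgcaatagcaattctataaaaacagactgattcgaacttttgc
ND-51 (chr2L:6062820-6062920, minus strand): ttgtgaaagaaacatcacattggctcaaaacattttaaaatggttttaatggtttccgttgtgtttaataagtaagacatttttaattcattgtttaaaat
ND-24 (chrX:17632180-17632253, plus strand): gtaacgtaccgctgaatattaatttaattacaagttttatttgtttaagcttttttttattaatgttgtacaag
ND-42 (chr3R:22027511-22027611, plus strand): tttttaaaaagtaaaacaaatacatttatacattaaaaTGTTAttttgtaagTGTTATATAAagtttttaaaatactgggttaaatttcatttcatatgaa
COX5A (chr3R:11819464-11819547, plus strand): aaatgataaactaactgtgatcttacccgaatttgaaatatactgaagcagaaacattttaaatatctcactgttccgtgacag
COX8 (chr3L:21539450-21539550, minus strand): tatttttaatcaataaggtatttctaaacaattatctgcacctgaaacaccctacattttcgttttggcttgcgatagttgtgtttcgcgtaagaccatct
COX5B (chr2L:6557503-6557579, plus strand): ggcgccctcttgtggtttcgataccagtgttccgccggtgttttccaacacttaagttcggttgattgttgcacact
ATPsynCF6 (chr3R:23356088-23356188, minus strand): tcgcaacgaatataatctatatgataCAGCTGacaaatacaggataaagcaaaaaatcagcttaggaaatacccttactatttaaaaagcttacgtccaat

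Most of the windows printed are rich in A and T. Of the 13 prepared, the stretches not printed ran from 5.88% GC at ND-B22 to 55.6% at SdhD. Over the 17 summits at promoters of the 84 genes the full windows, exons included, had a median GC share of 33.7%. The median was 35.6% over the 1725 summits at promoters of all protein-coding genes. The 17 windows ran from 15.8% at ND-42 to 56.4%. The window of ND-42 holds 2 matches to the pentamer TAACA on its opposite strand, and the second of them overlaps a match to the nuclear respiratory gene element, TTATATAA. The window of ATPsynCF6 holds an E-box.

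Complex I held the strongest promoter summit of the group, upstream of ND-ASHI and within a gene of the citric acid cycle. ND-ASHI (X, 6677262 to 6679118, minus strand), whose human counterpart NDUFB8 is an accessory subunit of the membrane arm, had a peak of 335.7, higher than 93.2% of conservative peaks. It lay 262 bp upstream of the ND-ASHI TSS and 260 bp from a TSS of Fum1, the fumarase gene on the other strand, inside a Fum1 intron. Replicate 1 gave this peak 149 and replicate 2 gave it 190 in their own ranked lists, and both kept it in their thresholded lists. It was the only summit within 5 kb of ND-ASHI.

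ND-MWFE (2R, 13158666 to 13160190, plus strand), the counterpart of the small membrane subunit NDUFA1 in human, had a peak of 221.7 at 183 bp upstream. The replicates gave it 94.5 and 124, and both lists kept it. Its summit was nearer to another gene, 38 bp from a TSS of TppII, which encodes tripeptidyl-peptidase II. ND-51 (2L, 6060842 to 6062757, minus strand), the flavoprotein subunit that accepts electrons from NADH, had a peak of 141.1 at 113 bp upstream, with 54.6 in replicate 1 and 86.3 in replicate 2. A second summit within 5 kb was much stronger, at 998.6, but lay 3347 bp upstream of ND-51 and 17 bp from the TSS of CG9147.

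The other 4 bound genes of complex I were of lower signal. ND-24, an iron-sulphur subunit that works beside ND-51, had 137.5, with 40.8 in replicate 1 and 95.4 in replicate 2, and only the list of replicate 2 kept it. Its summit was 100 bp upstream of 1 own TSS and 132 bp inside the gene from the other. ND-42, the counterpart of human NDUFA10, had 94.5, with the nearer TSS (81 bp) being that of Cchl, the cytochrome c heme lyase gene, and its own TSS 148 bp away. ND-B22 (73.1, 33 bp downstream) and ND-SGDH (54.4, 40 bp downstream) had summits in the non-coding part of an exon. The ND-SGDH peak was kept in neither replicate's list, at 30.7 in replicate 1 and 28.7 in replicate 2.

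Both bound genes of complex II had weak summits inside the gene. SdhB (2R, 6807626 to 6809172, plus strand) encodes the iron-sulphur subunit and had 49.6 at 358 bp downstream in an intron, higher than 4.61% of conservative peaks, with 32.1 in replicate 1 and 27.6 in replicate 2. A further summit of 4.40 lay 577 bp downstream on the same replicate peaks, and another of 119.0 lay 2203 bp downstream and 63 bp from CG15237. SdhD (3R, 23759483 to 23760600, minus strand), a membrane anchor subunit, had 79.3 at 125 bp downstream in a coding exon, with 34.8 and 39.3 in replicates 1 and 2. Neither SdhB nor SdhD was kept in a replicate's own list. A stronger summit of 307.0 near SdhD was 2387 bp away and 126 bp from PTPMT1, a mitochondrial phosphatase gene. The flavoprotein gene SdhA and the anchor gene SdhC had no promoter summit.

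Complex III had 1 bound gene. UQCR-C1 (3R, 14890231 to 14892387, plus strand), which encodes a core subunit, had 55.3 at 25 bp downstream, in the non-coding part of an exon, with 29.9 in replicate 1 and 31.0 in replicate 2. Its TSS is 26 bp from that of CycC, the cyclin C gene on the other strand, and the summit was 51 bp from the CycC TSS. Further summits of 70.9 and 85.5 lay 4104 bp upstream and 3816 bp downstream, 119 bp from Rrp6 and 93 bp from Dph2.

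Complex IV had 4 bound genes, and all of them share the promoter region with another gene. COX5A (3R, 11819359 to 11820299, plus strand), the counterpart of a nuclear subunit on the matrix side in mammals, had 123.8, with 65.0 in replicate 1 and 66.4 in replicate 2, and both lists kept it. This summit was 85 bp upstream of 1 own TSS and 155 bp inside the gene from the outermost, and glo, an RNA-binding protein gene on the other strand, has a TSS 94 bp from it. A second conservative summit of 19.6 at 122 bp downstream overlapped the same replicate peaks. COX6B (X, 19740537 to 19744335, minus strand), the counterpart of a subunit on the outer face in mammals, had 113.3 at 24 bp upstream, with 55.9 and 55.7 in replicates 1 and 2. Its TSS is shared with CG18809, and Rpp20 and CG33932 start 72 bp from the summit. COX8 (3L, 21538859 to 21539447, minus strand), a small membrane subunit, had 93.7 at 53 bp upstream, with 33.1 in replicate 1 and 65.3 in replicate 2. A summit of 89.35 at 576 bp upstream was nearer VhaM9.7-b, a proton pump gene. COX5B, a zinc-binding subunit in mammals, had 83.2, with 29.9 in replicate 1 and 51.5 in replicate 2. The summit lay 271 bp from the COX5B TSS and 27 bp from that of IFT52, an intraflagellar transport gene.

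Complex V had 2 bound genes. The other 13, among them ATPsynB, ATPsynC, ATPsynO and the catalytic subunit gene ATPsynbeta, had no promoter summit. The alpha subunit gene blw, whose symbol falls outside the rule, had one of 267.3. ATPsynCF6 (3R, 23355220 to 23356064, minus strand), coupling factor 6, had 103.1 at 74 bp upstream, with 56.3 in replicate 1 and 52.1 in replicate 2, and Sec13 starts 140 bp away on the other strand. Summits of 61.5 at 1192 bp downstream and 88.4 at 997 bp upstream were also within 5 kb. ATPsynE (3R, 14326947 to 14327735, plus strand), which encodes a membrane subunit, had 85.3 at 21 bp downstream. Replicate 1 gave it 58.6 and replicate 2 gave it 28.3, and only the list of replicate 1 kept it. A summit of 89.05 lay 814 bp downstream, 169 bp from spn-B.

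**Figure D2:**
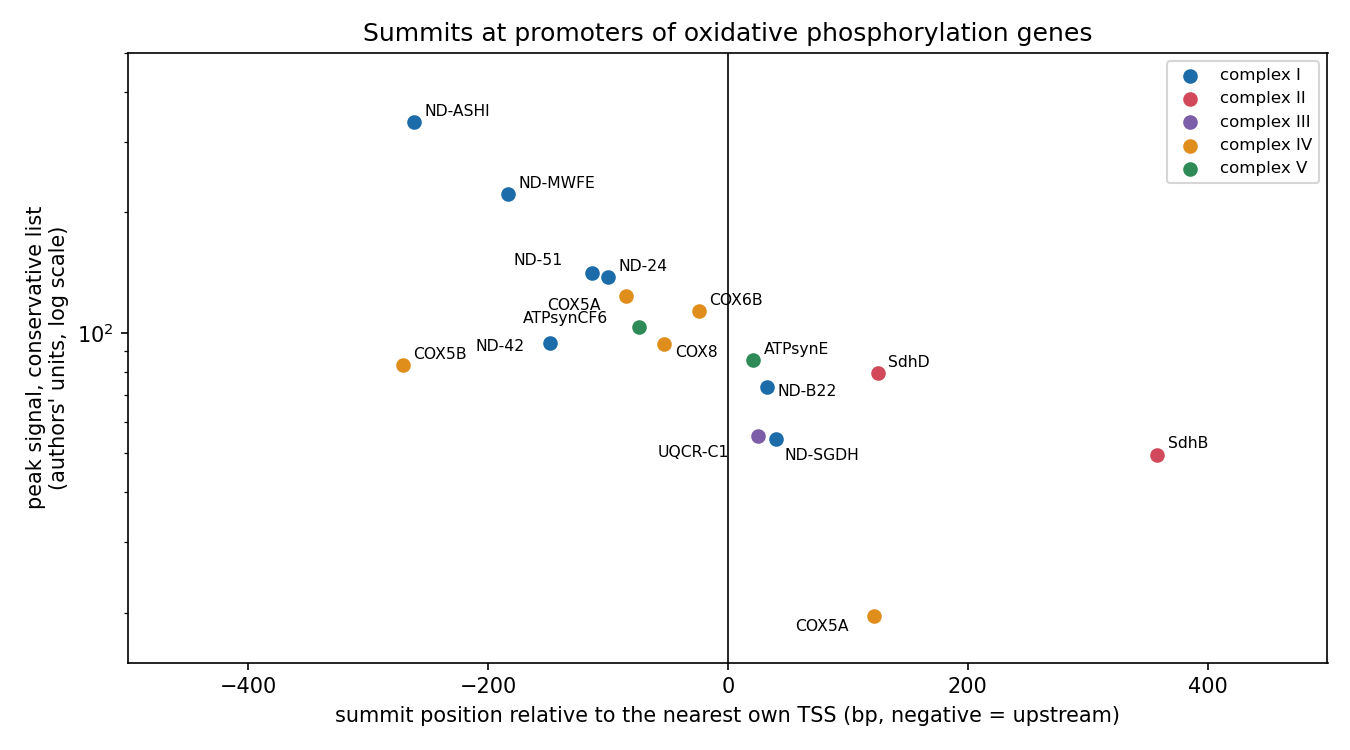
Position of each promoter summit relative to the nearest own TSS (bp, horizontal axis) and its signal in the conservative list (authors' units, log scale), 1 point for each of the 17 summits of 16 genes, coloured by complex. Summits upstream of the nearest own TSS run from 83.2 to 335.7 and those downstream from 19.6 to 85.3. The upstream summits of ND-24 and COX5A lie inside the gene when measured from its outermost TSS.

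The summits upstream of the nearest own TSS had the higher signals. The 10 summits upstream of the nearest own TSS had a median signal of 119 and a range of 83.2 to 335.7, and the 7 downstream had a median of 55.3 and a range of 19.6 to 85.3. The split depends on the TSS taken. Among the upstream summits, those of ND-24 (137.5) and COX5A (123.8) lay 132 and 155 bp inside the gene from its outermost TSS. The downstream value of 19.6 is the second COX5A summit, which overlapped the same replicate peaks as the first. Over all protein-coding genes the medians were 117 upstream (1839 pairs of gene and summit) and 80.3 downstream (481 pairs), so the direction is that of promoters in general. Of the members' summits 58.8% were upstream, against 79.3% of those of all genes, with a median position of -53 bp against -120 bp.

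Bound genes mostly shared their promoter with another coding gene. For 13 of the 16 a TSS of another protein-coding gene lay within 500 bp of the summit, and ND-B22, SdhB and SdhD were the exceptions. Counting pairs of gene and summit, 82.4% had such a TSS against 49.7% over all bound protein-coding genes, where a shared summit counts for each gene. In 5 of the 17 cases the nearest coding TSS belonged to another gene or tied with it, at ND-42, ND-ASHI, ND-MWFE, COX5B and COX6B. Of the members' pairs 70.6% had an own TSS nearest, close to the 74.4% over all protein-coding genes. Opposite-strand coding neighbours with a TSS within 1000 bp upstream were found for 43 of the 84 genes (51.2%) against 36.2% of all protein-coding genes. Of those 43 genes 13 were bound (30.2%), against 24.7% of 5052 such genes in the annotation. Of the remaining 41 genes 3 were bound (7.32%), against 9.59% of the other 8893. In each class the share was near that of genes arranged alike. Among the paralogs, 3 of 21 had such a neighbour, against 40 of the other 63.

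No pair of the 84 genes faced each other in this way. The genes that shared a bound promoter had varied roles, among them Fum1 and Cchl, a synaptonemal complex gene (corolla, at ND-24) and a coat protein gene (Sec13). A citrate synthase gene, kdn, faces ND-B16.6, and a mitochondrial ribosomal protein gene, mRpL55, faces ATPsynD, and no summit lay within 500 bp of ND-B16.6 or ATPsynD.

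The wider neighbourhoods held many more summits, most of them nearer to other genes. A summit lay within 5 kb of 43 of the 84 genes (51.2%), against 43.7% of all protein-coding genes. For 27 of them no summit was at the promoter, and 41 had no summit within 5 kb. Of 49 distinct summits in these loci outside the promoter, 41 were nearest the TSS of a gene outside the group and 32 were within 500 bp of one. The 49 include the promoter summit of COX5B, nearest IFT52, because it lies outside the promoter of COX5BL. Summits at a gene's own promoter were set aside first for that gene only, and the same count was not made around other genes. These numbers therefore describe the loci and show no trait of the group. Nearest to the 500 bp limit among bound genes was SdhB at 358 bp, and the nearest unbound gene was UQCR-11, with 74.7 at 977 bp, then UQCR-6.4L with 98.0 at 1043 bp.

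In complex I the unbound genes had no summit within 1000 bp of a TSS, and most of their summits were nearer another gene. ND-39 had 89.0 at 1553 bp and 5.32 at 1513 bp, both nearer ZnT77C. ND-B14 had 92.8 at 1326 bp (nearer Polr2E) and 141.8 at 3648 bp (nearer cag). ND-B14.7 was the gene with the nearest TSS to its own summit of 171.5, 2666 bp away, and so was ND-20L to 68.9 at 3649 bp. ND-75, the large iron-sulphur subunit gene, had 67.8 at 3450 bp, and ND-ACP, the acyl carrier protein, had 159.2 at 4789 bp. ND-B16.6 had 158.7 at 3371 bp and 130.0 at 6200 bp from its TSS, beyond the other end of the gene. ND-B17 had 92.2 at 3851 bp, ND-B12 62.3 at 4277 bp, ND-B15 68.6 at 4131 bp and ND-18 55.65 at 4574 bp. ND-B8 had 138.8 at 3740 bp, which was 2 bp from the TSS of RpL27A, a ribosomal protein gene, and ND-MNLL had 75.4 at 4658 bp. ND-15, whose span overlaps CG3164, had summits of 60.15 and 5.90 at 14463 and 14666 bp from its TSS, near the start of CG3164. ND-B22 (107.8 at 1965 bp and 273.4 at 2841 bp) and ND-42 (65.5 at 4354 bp) had distant summits besides their own.

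In the other complexes the strongest distant summit was that of COX7AL2, 1060 at 4499 bp, with 224.6 at 3343 bp and 184.2 at 3770 bp; this paralog had no promoter summit. COX5B and its adjacent paralog COX5BL share a summit of 469.0, at 4400 and 2769 bp, and 1 of 182.6, at 3901 and 2270 bp, both near Trmt6. The promoter summit of COX5B (83.2) is 1902 bp from COX5BL. COX7C and its neighbour COX7CL share 197.8 (1952 and 3947 bp) and 60.4 (2800 and 4795 bp). COX7B had 298.0 at 3484 bp, UQCR-6.4 357.1 at 4166 bp and UQCR-C2 59.7 at 3873 bp. UQCR-6.4L had a further 85.9 at 4830 bp, and SdhC had 117.1 at 1960 bp. ATPsyngamma had 174.4 at 3641 bp, ATPsynO 91.8 at 2145 bp, 12 bp from a TSS of Su(var)3-9, and ATPsynepsilonL 66.0 at 3838 bp.

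The genes with no summit within 5 kb were, in complex I, ND-13A, ND-13B, ND-19, ND-20, ND-23, ND-24L, ND-30, ND-49, ND-49L, ND-51L1, ND-51L2, ND-AGGG, ND-B14.5A, ND-B14.5AL, ND-B14.5B, ND-B17.2, ND-B18, ND-MLRQ and ND-PDSW, and SdhA in complex II. In complexes III and IV they were UQCR-11L, UQCR-14, UQCR-14L, UQCR-Q, COX4, COX4L, COX6AL, COX6AL2, COX6CL, COX7A and COX7AL. In complex V they were ATPsynB, ATPsynC, ATPsynCF6L, ATPsynD, ATPsynF, ATPsynG, ATPsynGL, ATPsynbeta, ATPsynbetaL and ATPsyndelta. The absence of a summit means that none passed the conservative threshold, and the sequencing depth that sets it is unknown.

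The replicates' own ranked lists, which hold far more and weaker peaks, were read for the same promoters. Replicate 1 listed a peak within 500 bp of a TSS for 61 of the 84 genes, against 10759 of all 13945 protein-coding genes. The median of the highest signal was 21.8, against 19.4 over all listed protein-coding genes. Replicate 2 listed 64 of the 84, against 10926 of the 13945, with a median of 22.4 against 20.0. In both replicates the share listed was slightly below that of all genes. The 16 bound genes ranged from 29.5 to 149 (median 47.7) in replicate 1 and from 27.6 to 190 (median 53.9) in replicate 2. Over all bound protein-coding genes these medians were 49.4 and 65.6. Unbound genes that were listed ran up to 30.4 (median 15.9) in replicate 1 and up to 48.3 (median 18.2) in replicate 2, so that the bound and unbound genes overlap in each replicate. The 21 paralogs reached at most 27.1 and 28.5, with 14 of them listed in each replicate. SdhC (24.5 and 48.3), UQCR-11 (23.3 and 45.9) and COX7C (16.9 and 42.0) were the unbound genes highest in replicate 2. There were 13 genes with no such peak in either list. The same count over all protein-coding genes was not made, so the 13 show no trait of the group. Among them were ND-49 and ATPsynbeta, the 2 genes on arm 4, which are too few to describe that arm.

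**Figure D3:**
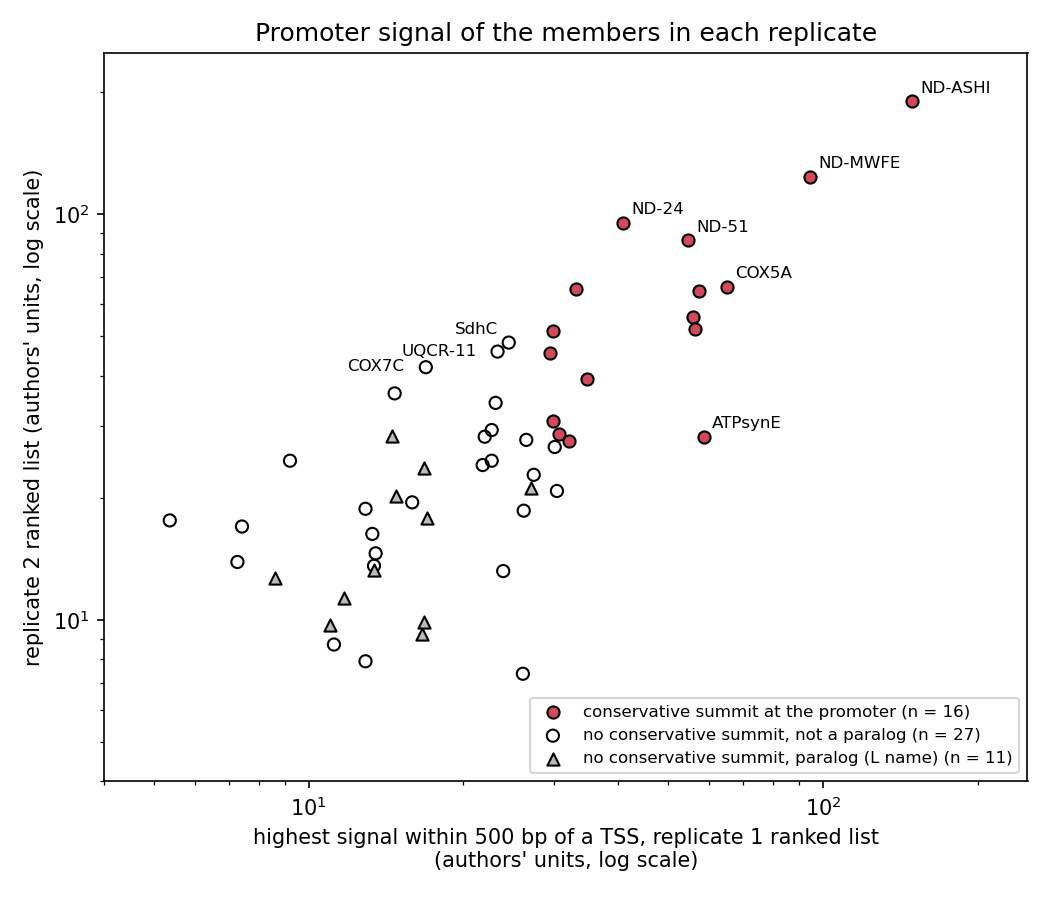
Highest signal within 500 bp of an own TSS in the ranked list of replicate 1 (horizontal) and replicate 2 (vertical), both in the authors' units on log scales, for the 54 genes listed in both; the scales of the 2 lists may differ. The 16 genes with a conservative summit sit at 27.6 or more in each replicate, and the 27 other genes and 11 paralogs reach 30.4 in replicate 1 and 48.3 in replicate 2.

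Each of the 17 promoter summits overlapped a peak in both ranked lists, and the 2 summits of COX5A overlapped the same one. The conservative list holds peaks reproducible between these same replicates, so this overlap was largely given in advance and is no independent support. In the thresholded list of replicate 1, 7 of the 84 genes (8.33%) had a promoter summit against 9.01% of all protein-coding genes. In that of replicate 2 there were 14 (16.7%) against 13.9%. Both lists kept 6 genes, ND-42, ND-51, ND-ASHI, ND-MWFE, COX5A and ATPsynCF6. ND-SGDH, SdhB, SdhD and UQCR-C1 were kept in neither list, and replicate 2's list added COX7B, SdhC and UQCR-11. Signals of the 2 lists are in each list's own units, so the values of the 2 replicates are given side by side and not compared as levels.

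Promoter sequences were scanned for the motifs named above over 250 bp upstream to 50 bp downstream of each gene's 5' end. The M1BP site was in 15 of the 84 promoters (17.9%) against 6.05% of all protein-coding promoters. It was in 3 of the 16 bound (COX5A, COX5B and ND-MWFE) and in 12 of the 68 unbound, a share of 18.8% against 17.6%. At the 17 summit windows it was in 0, against 0.870% of all promoter summits. The DREF site was in 9 of 84 promoters (10.7% against 9.36%). It was in 0 of the 16 bound promoters, against 258 of the 2099 bound promoters of all protein-coding genes (12.3%), and in 0 of 17 summit windows against 2.32%. Neither share says that the factor is bound or not.

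The Iroquois palindrome ACANNTGT was in 17 of 84 promoters (20.2% against 13.4%) and in 0 of 17 summit windows against 4.41%. It was in 3 of the 16 bound promoters (18.8%), those of ATPsynCF6, ND-ASHI and SdhB. Of the 68 unbound promoters 14 held it (20.6%), and 15.2% of all bound protein-coding promoters did. The pentamer TAACA was in 50 of 84 promoters (59.5% against 53.6%) and in 4 of 17 summit windows (23.5% against 25.9%). The E-box was in 20 promoters (23.8% against 17.7%) and in 2 summit windows (11.8% against 5.33%), at ATPsynCF6 and UQCR-C1. The nuclear respiratory gene element, a palindrome described in flies for this class of gene, was in 5 promoters (5.95% against 5.18%), those of ND-30, ND-42, ND-49, ND-MNLL and ND-SGDH. It was in 2 of 17 summit windows (11.8% against 2.26%), at ND-42 and SdhB. By bound against unbound promoters, the E-box was in 31.2% against 22.1% and the nuclear respiratory gene element in 12.5% against 4.41%. With so few windows, 1 gene moves these shares by several percentage points.

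Related genes were counted by the same rule. Of 9 further respiratory chain subunits and cytochrome c genes, whose symbols fall outside the rule, 4 had a promoter summit (44.4%, against the same 15.1% of all genes). The highest were Cyt-c-d, a cytochrome c gene, with 550.9 at 364 bp (nearer CG31808), and blw, the alpha subunit of ATP synthase, with 267.3 at 169 bp. The subunit genes levy and cype of complex IV were the others, at 175.1 and 86.6. All 9 of these genes had a summit within 5 kb, against 43.7% of all protein-coding genes. Of 11 assembly factors matched, 2 were bound, and CIA30, a complex I assembly factor, had the highest with 1325 at 121 bp, shared with CG7601. Ttc19 had 179.2. Of 15 genes of the citric acid cycle and pyruvate dehydrogenase, 3 were bound, led by Idh3g, an isocitrate dehydrogenase subunit gene, at 402.2 (shared with CG4743) and Fum1 at 335.7, the summit described above. Of 8 regulators of mitochondrial genes 1 was bound, PolrMT, the mitochondrial RNA polymerase, at 65.7.

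Among families of comparable genes, 13 of 73 mitochondrial ribosomal protein genes (17.8%), 5 of 33 vacuolar ATPase genes (15.2%) and 51 of 92 cytosolic ribosomal protein genes (55.4%) were bound. The median of the highest signal in bound genes was 94.1 in the oxidative phosphorylation genes, 395 in the mitochondrial ribosomal protein genes, 123 in the vacuolar ATPase genes and 130 in the cytosolic ribosomal protein genes. The highest were mRpS10 (1521, shared with Art3) and mRpS23 (1285), Vha16-5 (303.1) and Vha100-2 (167.3), and RpL7 (400.4) and RpS27 (343.1). No test of a difference between these families was made, and their counts are given as background.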

How the data were processed

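ChIP-seq peak lists from 2 biological replicates of ara-eGFP embryos were used, with fragments of 200 to 800 bp per the labels. The authors deposited lists ranked by reproducibility (irreproducible discovery rate) on dm6. The sources used here do not state the aligner, the peak caller, the read depth or the scaling of the signal. Control libraries were not analysed. Signal is a value that the authors deposited for every peak, and it was read only within a list. The conservative list (4716 peaks, 4706 on the 6 arms, median signal 96.2) was the main set. The other thresholded list held 5483, replicate 1's list 2402 and replicate 2's 4136. A lowest deposited score of 830 held in all 4 of these lists.

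Summits were taken as 1-based positions. Annotation was Ensembl release 115 (BDGP6.54), and sequence came from the RefSeq Release 6 genome, in which 99.8% of annotated start codons read ATG. A gene was bound if a summit lay within 500 bp of the start of any own coding transcript. Replicate signals are those of the peak in a replicate's ranked list that overlapped the conservative peak by at least 1 bp and had the nearest summit. Of 44 symbols in the other lists 43 matched, 1 of them through an older name.

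The genes named are all bound ones, with the 3 highest per complex in full, unbound ones with their summits within 5 kb, and the 2 highest in each other list; further names were chosen after their values were seen. Members, lists and motifs were chosen with earlier results of these data known. With 1 group no test was made. Alternatives changed the peak list, threshold, replicate, distance, assignment, overlap, TSS set and member list. On simulated data with 200 planted summits, the counting returned all 200 genes. Tools were Python 3.11.15, numpy 2.4.6, pandas 2.3.3 and matplotlib 3.10.9.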

Additional observations from a re-analysis of the deposited data

How the results depend on the processing

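The main count was 16 bound genes (19.0%, against 15.1% of all genes). The other thresholded list also gave 16, of which 13 were shared (19.0% against 16.7%). In that list ND-42, SdhB and UQCR-C1 were lost, and COX7B, SdhC and UQCR-11 were gained. Without replicate 1 there were 14 (16.7% against 13.9%), and without replicate 2 there were 7 (8.33% against 9.01%). A distance of 250 bp gave 13 (15.5% against 11.9%), and 1000 bp gave 17 (20.2% against 18.5%). Counting a summit only for the nearest coding TSS gave 12 (14.3% against 11.6%). Any base of the peak gave 16 (19.0% against 16.4%), and so did the 5' end of the gene model (19.0% against 13.1%). Without paralogs the count was 16. Leaving out a replicate gave 7 to 14 bound genes, and 1257 to 1936 of all genes. Of the 14 without replicate 1, 11 were shared with the main set. COX7B, SdhC and UQCR-11 were gained, and ATPsynE, ND-SGDH, SdhB, SdhD and UQCR-C1 were lost. With only the peaks above the list's median signal 7 genes were bound, and 1275 of all genes. By complex, the stronger peaks gave 4, 0, 0, 2 and 1 for complexes I to V. Leaving out a replicate gave 4 to 6, 0 to 1, 0 to 1, 1 to 5 and 1 to 2. The nearest TSS gave 4 in complex I, 250 bp gave 1 in complex II and 1000 bp gave 2 in complex III. ATPsynCF6, COX5A and ND-51 were bound in all 9 alternatives that changed peaks or distances, and 0 paralogs were bound in any of them. No paired analysis was possible because the labels give a single group. Unknown depth limits what an absent peak shows, and the cause of these changes was not tested.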
